A study of Homo sapiens with 38 samples.

Results

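The ETS family is a group of transcription factors that share a winged helix-turn-helix DNA-binding domain, the ETS domain. The chromatin around 9 of its genes was described in Jurkat cells, a human T cell leukaemia line: ETS1, ETS2, FLI1, ERG, ELF1, ELK3, ETV6, GABPA and SPI1. The genes were chosen by name, and for each of them every deposited region that touched the RefSeq gene record or the 50 kb on either side of it was taken. This gave 9 windows of 20050 around protein-coding gene records. They held 88 of 29009 GATA3 regions, 70 of 26205 BHLHE40 regions and 215 of 113570 H3K27ac regions.

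The study mapped chromatin proteins in Jurkat cells by ChIP-seq, which sequences the DNA that an antibody pulls down from fixed chromatin. It has 38 samples in 19 groups of 2. The 3 groups used here carried a control lentivirus and had been given 50 ng/ml PMA together with 500 ng/ml ionomycin, drugs that mimic signalling from the T cell receptor. Their antibodies were against GATA3, BHLHE40 and H3K27ac, and the stimulation time was 5 hours in the sample labels but 2 hours in the treatment protocol. Jurkat is a single transformed line, and all 3 groups had the stimulation and the lentivirus, so nothing here compares stimulated with resting or edited with unedited cells. Each list was made from the 2 samples of a group together, without separate values for them, so the spread between samples is unknown and no difference was tested.

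ETS factors bind DNA around a GGAA core. ETS1, FLI1 and ELF1 act in T cell development and in the expression of T cell genes, whereas ERG belongs to haematopoietic stem cells and endothelium and SPI1, which encodes PU.1, to myeloid and B cells. GATA3 is the zinc-finger factor of the T helper lineage and binds GATA sequences, BHLHE40 is a basic helix-loop-helix factor that binds E-boxes, and H3K27ac is the histone acetylation found at active promoters and enhancers.

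As a check of the cell type, an H3K27ac region lay near the start of 9 of 11 genes chosen for T cells. Among these 9 was TAL1, an oncogene of T cell leukaemia and not a marker of normal T cells. Of 10 genes of other blood cells 1 had such a region, CD79A. GATA3 and TRBC2 were the genes chosen for T cells without one. With regions limited to a −log10 q-value of at least 5, the counts were 8 of 11 and 0 of 10. H3K27ac regions were much more numerous than factor regions, and many were weak. At that q-value 84 of the 215 H3K27ac regions in the windows remained, 39.1% against 25.1% of the whole list.

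Sequences were at hand for the promoters, taken here as the 250 bases before and 50 bases after each RefSeq start. The 5 below are shown because the results on the starts of ELF1, ETV6, GABPA and ETS2 refer to them. The ELF1 internal start had all 3 kinds of region, with the GATA3 summit nearly on the start. The outer ELF1 start and the ETV6 start had BHLHE40 and H3K27ac without GATA3, the GABPA start had all 3, and the first ETS2 start had none within these bases. Capitals mark the GATA motif GATAA, the E-boxes CACGTG and CAGCTG, the extended ETS motif CCGGAAG and the AP-1 motif TGACTCA on either strand, and sequences run 5′ to 3′ on the gene's strand in RefSeq GRCh38.p14.
ELF1 internal start, minus strand, chr13:40982850-40983149: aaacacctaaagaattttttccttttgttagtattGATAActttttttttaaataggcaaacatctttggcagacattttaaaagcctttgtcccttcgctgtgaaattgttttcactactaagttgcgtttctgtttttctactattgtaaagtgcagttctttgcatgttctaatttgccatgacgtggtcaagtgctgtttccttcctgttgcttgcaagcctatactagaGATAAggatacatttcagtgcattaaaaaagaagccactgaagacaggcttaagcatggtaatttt
ELF1 outer start, minus strand, chr13:41061337-41061636: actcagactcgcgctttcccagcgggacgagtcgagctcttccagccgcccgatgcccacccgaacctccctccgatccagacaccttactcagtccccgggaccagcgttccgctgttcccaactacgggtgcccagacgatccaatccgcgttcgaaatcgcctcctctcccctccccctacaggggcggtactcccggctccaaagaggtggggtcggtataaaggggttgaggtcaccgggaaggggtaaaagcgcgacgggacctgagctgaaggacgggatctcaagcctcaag
ETV6 start, plus strand, chr12:11649424-11649723: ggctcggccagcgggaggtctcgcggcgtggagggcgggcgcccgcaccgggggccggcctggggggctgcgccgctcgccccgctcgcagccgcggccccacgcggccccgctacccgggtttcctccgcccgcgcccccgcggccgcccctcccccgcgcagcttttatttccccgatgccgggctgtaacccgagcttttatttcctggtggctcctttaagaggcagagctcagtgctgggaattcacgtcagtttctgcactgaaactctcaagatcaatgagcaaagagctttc
GABPA start, plus strand, chr21:25734722-25735021: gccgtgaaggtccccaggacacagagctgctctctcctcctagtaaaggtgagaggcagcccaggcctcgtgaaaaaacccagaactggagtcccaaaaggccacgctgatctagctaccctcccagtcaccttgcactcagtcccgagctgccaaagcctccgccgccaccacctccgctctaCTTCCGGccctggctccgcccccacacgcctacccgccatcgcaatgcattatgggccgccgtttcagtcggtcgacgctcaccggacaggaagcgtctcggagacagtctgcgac
ETS2 first start, plus strand, chr21:38804933-38805232: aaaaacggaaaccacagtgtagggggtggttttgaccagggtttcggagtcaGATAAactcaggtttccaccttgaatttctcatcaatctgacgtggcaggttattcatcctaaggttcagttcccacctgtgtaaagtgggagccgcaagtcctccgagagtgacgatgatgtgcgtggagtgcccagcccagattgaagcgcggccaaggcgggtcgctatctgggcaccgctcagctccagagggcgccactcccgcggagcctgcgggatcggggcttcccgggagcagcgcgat

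GATA3 regions crowded around 4 of the 9 genes. FLI1, ETS1, ELF1 and ETV6 together held 74 of the 88 GATA3 regions, 53 of the 70 BHLHE40 regions and 159 of the 215 H3K27ac regions, in 52.0% of the summed window length. These 4 genes are long, longer than 87.5% to 94.8% of protein-coding genes. ERG is longer still, longer than 96.0% of genes, and held 6 GATA3, 4 BHLHE40 and 11 H3K27ac regions. ERG thus had fewer regions in a longer window, and densities per 100 kb of window are given next.

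FLI1 had 10.5 GATA3 regions per 100 kb and ETS1 had 9.62, against a median of 0.992 over all protein-coding windows. These densities exceeded those of 99.8% and 99.7% of genes. ELF1, at 6.54 per 100 kb, exceeded 98.4% of genes, and ETV6, at 3.76, exceeded 90.4%. The other 5 genes lay between 0.727 per 100 kb at GABPA and 2.50 at ETS2, and GABPA alone was below the median.

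BHLHE40 followed a similar order with smaller distances from the median of 1.62 per 100 kb. FLI1 had 7.45 per 100 kb, ETS1 5.68, ELF1 4.36, SPI1 4.04 and ETV6 3.76. FLI1 was above 97.1% of genes for this factor and ETS1 above 92.6%. ERG and GABPA, at 1.01 and 0.727 per 100 kb, were below the median.

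For H3K27ac the order changed, with ETS1 first at 18.4 regions per 100 kb, above 99.2% of genes. ETV6 followed at 15.6, FLI1 at 14.0 and ELF1 at 13.5, against a median of 5.91. Many of these regions were weak. A −log10 q-value of at least 5 was reached by 18 of 42 regions at ETS1 and 20 of 54 at ETV6. It was reached by 14 of 32 at FLI1 and 16 of 31 at ELF1. Densities limited to that q-value were not calculated, but the order differs there. ELF1 had more such regions than FLI1 in windows of nearly equal length, 229 and 228 kb. ERG had the sparsest window of the 9, with 2.79 H3K27ac regions per 100 kb, and 74.0% of the H3K27ac regions lay at the same 4 genes that held the factor regions. The ETS1 and FLI1 windows adjoin on chromosome 11 and overlap by 2427 bp, but no region was counted in both.

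**Figure D1:**
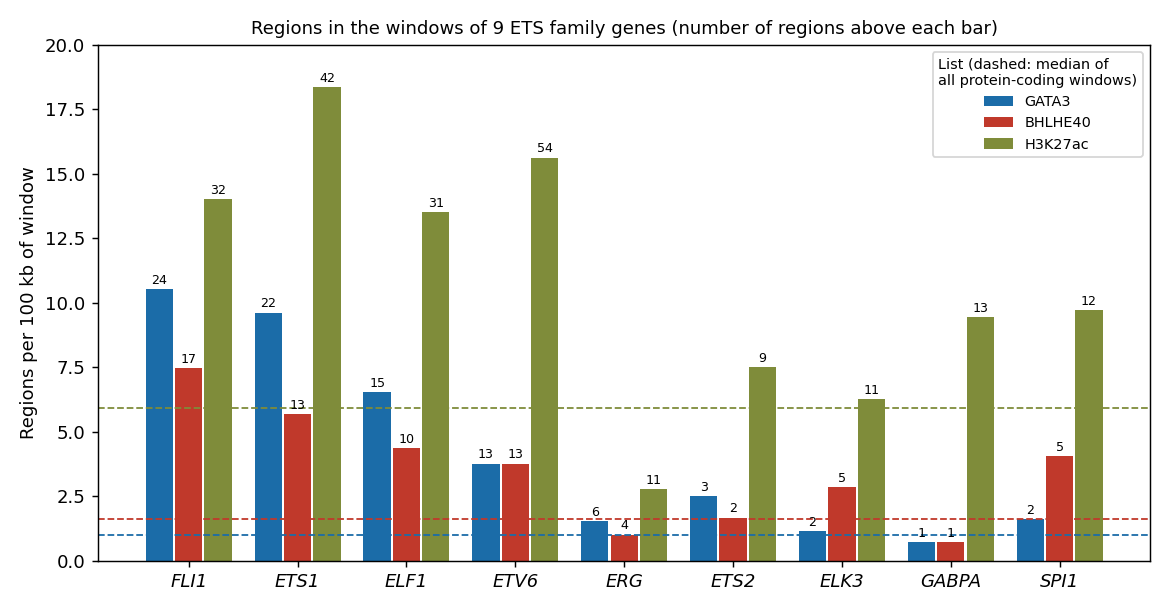
Regions per 100 kb of window for each of the 9 genes, with bars for GATA3, BHLHE40 and H3K27ac, the number of regions above each bar, and dashed lines at the median of all protein-coding windows. FLI1, ETS1 and ELF1 stand far above the GATA3 line, and ERG falls below the BHLHE40 and H3K27ac lines.

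All 9 windows held at least 1 region of each list, but this is common: 76.1% of protein-coding windows held a GATA3 region, 80% a BHLHE40 region and 92.6% an H3K27ac region. A GATA3 region that overlapped a BHLHE40 region was found in 8 of the 9 windows, all but ETS2, against 60.5% of all windows. Regions in the top 1% of a factor list by the authors' signal value were rarer, in 2.22% of windows for GATA3 and 2.2% for BHLHE40. FLI1 and ETS1 were the members with such regions, and both had them for both factors, which held for 0.788% of all windows. Regions in the top 10% were found in 5 of the 9 windows for GATA3, against 17.9% of all windows, and in 4 for BHLHE40, against 21.9%. These window shares were not scaled to window length. Per region, 13 of 88 GATA3 regions were in the top 10%, or 14.8%. The 95% Wilson interval, from 8.84% to 23.7%, includes the 10% of the list. For BHLHE40 the share was 7 of 70, or 10%, the same as in the list. Top 10% H3K27ac regions were found in all 9 windows, against 68.7%. Per region their share was low, 12 of 215 or 5.58% with a 95% Wilson interval from 3.22% to 9.50%.

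FLI1, an ETS factor of haematopoietic progenitors, megakaryocytes and endothelium, had the most factor regions of the 9 genes. Its record spans chr11:128685132-128813267, and its window held 24 GATA3, 17 BHLHE40 and 32 H3K27ac regions. Of the GATA3 regions, 15 lay inside the record and 15 overlapped a BHLHE40 region. Positions below are in kb from the lower-coordinate end of a record, which is not necessarily where the gene starts.

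The strongest place at FLI1 lay just outside the record, 6.89 kb before its lower end. The GATA3 region there, chr11:128677725-128678780, had a signal of 153, rank 51 of the GATA3 list. The BHLHE40 region, chr11:128677810-128678717, had a signal of 125, rank 20 of the BHLHE40 list, and the summits were 14 bp apart. The highest H3K27ac signal at this place was 3.61, against the list's median of 3.31, with a −log10 q-value of 8.61. A further place 4.04 kb before the record had a GATA3 signal of 49.6 and a BHLHE40 signal of 18.5.

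The other very strong place lay inside FLI1 at 53.9 kb. GATA3 had a signal of 138 at chr11:128738492-128739394, rank 83, and BHLHE40 a signal of 81.2 at chr11:128738405-128739398, rank 87. The summits were 3 bp apart, in an 84 bp gap between 2 H3K27ac regions. Both FLI1 places were thus in the top 1% of both lists, and no other place in the 9 windows was.

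The 53.9 kb place belonged to a run of 7 GATA3 regions between 40.6 kb and 54.5 kb in which each summit was no more than 5 kb from the next. Of these 7 regions, 5 overlapped BHLHE40 and 5 overlapped H3K27ac, and their GATA3 signals ran from 3.35 to 138. Runs of this length were uncommon: 14 of the 24119 runs of the GATA3 list, or 0.058%, had at least 7 regions. The length depended on the spacing allowed: with summits no more than 2500 bp apart the longest run at FLI1 had 3 regions, and with 10 kb it had 10. FLI1 also had runs of 3, 4 and 3 regions, so 17 of its 24 GATA3 regions belonged to 4 runs. Of all runs in the list, where a lone region also counts as a run, 3.63% had at least 3 regions. That is a share of runs, and it cannot be set against the share of FLI1 regions.

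Within the long run, GATA3 and BHLHE40 signals did not keep the same order. At 48.8 kb GATA3 reached 50.3, rank 1454, where BHLHE40 was 4.63, rank 24940 of 26205. At 44.2 kb the values were 42.2 and 17.4, and at 40.6 kb they were 14.4 and 17.4. This stretch therefore held places where both factors were strong and places where GATA3 far outranked BHLHE40.

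Beyond the upper end of FLI1, 27.1 kb away and inside the potassium channel gene KCNJ1, GATA3 had a signal of 62.8 and BHLHE40 of 23.2. The summits there were 2 bp apart and no H3K27ac region overlapped. At 29.2 kb inside FLI1 a GATA3 region of signal 42.9 and a BHLHE40 region of 7.32 likewise had no H3K27ac region. These were the places without H3K27ac among the 15 shared places of the 9 windows that were in the top 10% of either factor list.

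The strongest H3K27ac region of FLI1 lay elsewhere, at 9.08 kb, chr11:128694031-128694561, with a signal of 6.23. It overlapped a GATA3 region of signal 11.9 and a BHLHE40 region of signal 18.4, and it lay in the antisense long non-coding RNA gene SENCR. No region of any list came within 1 kb of either end of the FLI1 record, but starts inside the record were not examined. The 9 GATA3 regions of FLI1 without BHLHE40 had a median signal of 6.38, against 28.9 for the 15 with it, and 2 of the 9 overlapped H3K27ac. This gap was not shared by all dense windows: the medians with and without BHLHE40 were 9.58 and 9.85 at ELF1 and 8.42 and 10.5 at ETV6, and 13.9 and 10.1 in the whole list.

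ETS1, a factor of T cell and natural killer cell development, lies at chr11:128458765-128587558, 97.6 kb from FLI1. Its window held 22 GATA3, 13 BHLHE40 and 42 H3K27ac regions. Only 9 of the 22 GATA3 regions overlapped BHLHE40, against 15 of 24 at FLI1, and the 13 without it had a median signal of 6.87. Both groups of signals ran wide, from 5.19 to 127 with BHLHE40 and from 1.96 to 15.9 without it.

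The strongest GATA3 region of ETS1 was at 18.2 kb inside the record, chr11:128475780-128478011, with a signal of 127, rank 120. BHLHE40 there, chr11:128475812-128477772, had a signal of 49.9, rank 375, with its summit 5 bp away. The GATA3 summit fell in a 139 bp gap between 2 H3K27ac regions. It belonged to a run of 4 GATA3 regions from 13.6 kb to 20.6 kb, of which 3 overlapped BHLHE40. With 10 kb allowed between summits the longest run at ETS1 had 7 regions.

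The strongest BHLHE40 region of ETS1 was at another place, 36.0 kb before the record in an uncharacterised long non-coding RNA gene. BHLHE40 had a signal of 65.3 at chr11:128422324-128423218, rank 169, and GATA3 had 23.4 at chr11:128422328-128423251, rank 5265, with summits 1 bp apart. The highest H3K27ac signal of the window, 7.97, was at the same place, with a −log10 q-value of 50.1. By q-value the strongest H3K27ac region of the window was instead at the 18.2 kb place, with 83.5 and a signal of 4.33. So at ETS1 the highest GATA3 and the highest BHLHE40 signal were 54.1 kb apart, whereas at FLI1 they coincided.

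A further strong place of ETS1, at 116 kb and 12.7 kb from the record's upper end, had a GATA3 signal of 52.4, rank 1346, and a BHLHE40 signal of 11.3, rank 9828. Beyond the upper end, at 152 kb, BHLHE40 was 15.1 and GATA3 5.19, with an H3K27ac signal of 5.28. A group of 3 GATA3 regions between 74.9 kb and 76.4 kb overlapped neither BHLHE40 nor H3K27ac, with signals from 2.73 to 11.9. As at FLI1, neither end of the ETS1 record had a region of any list within 1 kb, and starts inside the record were not examined.

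ELF1, which regulates lymphoid genes, lies on the minus strand at chr13:40931919-41061386, so its outer start is the upper end. Its window held 15 GATA3, 10 BHLHE40 and 31 H3K27ac regions, and 8 of the 15 GATA3 regions overlapped BHLHE40. The strongest factor place was in the record at 73.1 kb. There GATA3 had a signal of 40.6 at chr13:41004025-41006173, rank 2154, and BHLHE40 a signal of 40.2 at chr13:41003921-41005773, rank 661. The summits were 1 bp apart, and the H3K27ac region over them, signal 5.61 with a −log10 q-value of 152, was 2356 bp wide.

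A second strong place was at the ELF1 internal start, 51.0 kb from the lower end. GATA3 had a signal of 38.1 at chr13:40982468-40983387, rank 2427, with its summit 28 bp from the start. BHLHE40 had 20.1 at chr13:40982296-40983610, rank 3216, with its summit 43 bp from the start. The promoter printed above is poor in G and C, 34.7% against a median of 58.7% over RefSeq promoters, and holds GATAA at 2 positions.

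The nearer GATAA, chr13:40982911-40982915, begins 16 bases before the start and is centred 12 bp from the GATA3 summit and 27 bp from the BHLHE40 summit. Read with the base before it, it is AGATAA, which 10.3% of 35116 RefSeq promoters hold, whereas 22.7% hold GATAA. The other GATAA lies 183 bp from the GATA3 summit. These letters describe the sequence and do not show that either factor touches it.

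The outer ELF1 start differed from the internal one. A BHLHE40 region of signal 11.8 and an H3K27ac region of signal 4.90 lay over it, with no GATA3 region within 1 kb. Its promoter is 63.0% G and C and has none of the marked motifs. The start of WBP4, a neighbouring gene on the other strand, lies in the same bases, so these regions cannot be assigned to one gene or the other. The highest H3K27ac signal at ELF1, 11.0, was at neither start but at 87.3 kb, where GATA3 was 8.11 and BHLHE40 7.98.

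**Figure D2:**
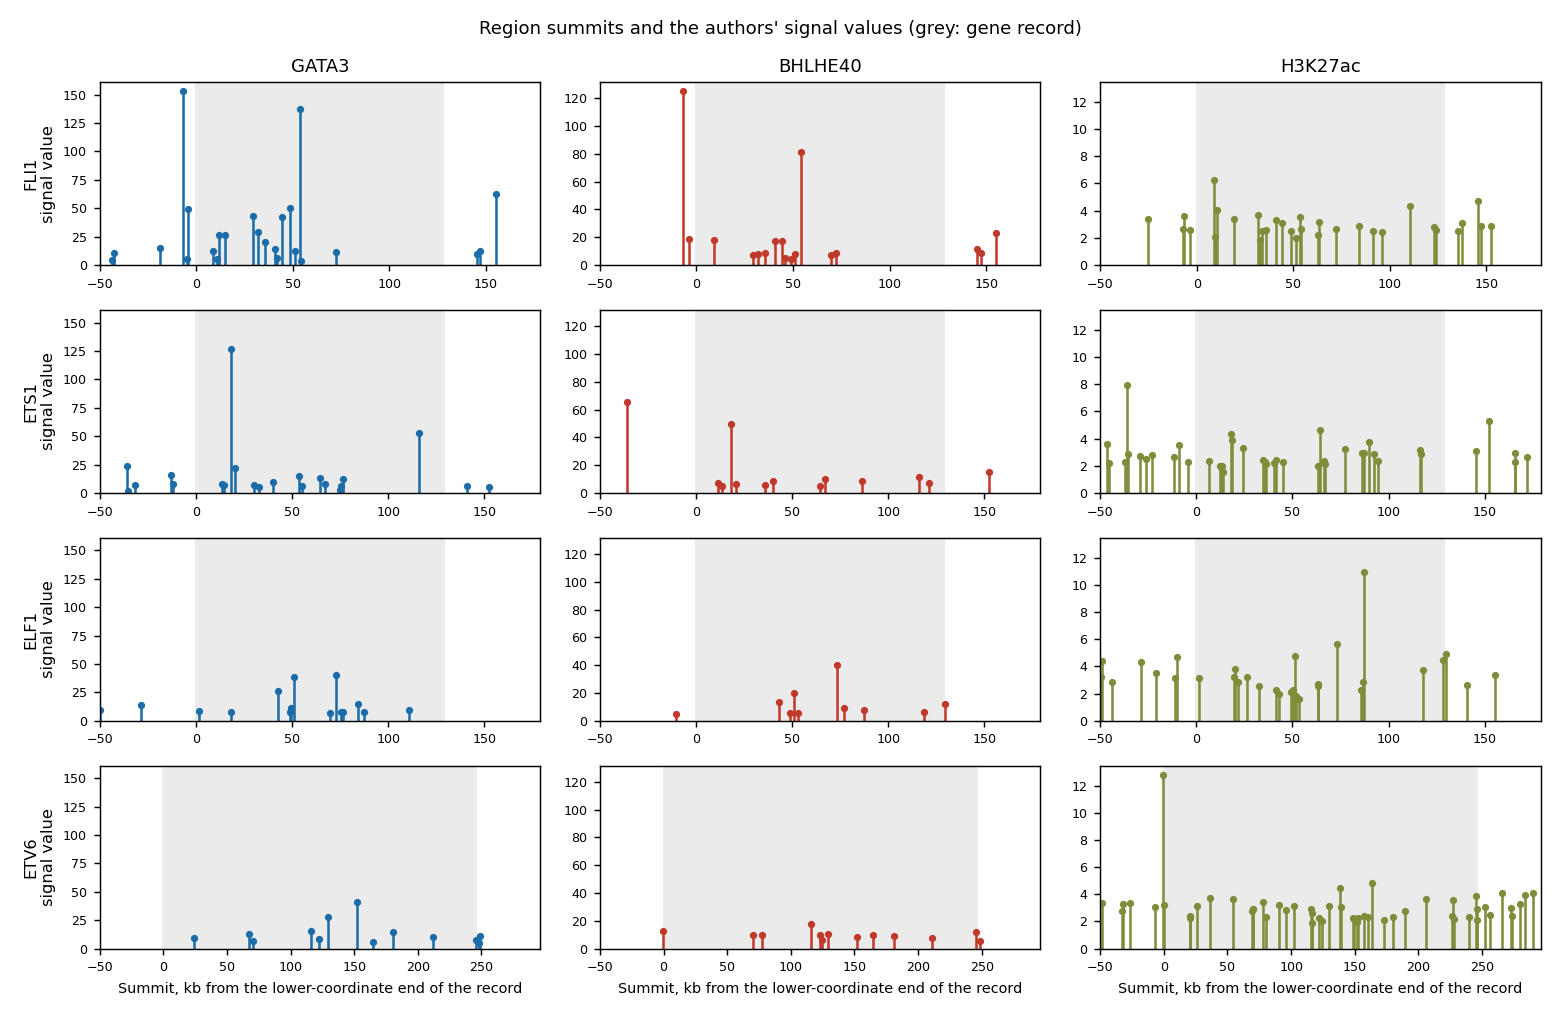
Each line is a region summit in the windows of FLI1, ETS1, ELF1 and ETV6, plotted at its distance in kb from the lower-coordinate end of the gene record (grey) with the authors' signal value as its height, for GATA3, BHLHE40 and H3K27ac. The tallest GATA3 lines are 153 and 138 at FLI1 and 127 at ETS1, none at an end of a record, and the tallest H3K27ac lines are 12.8 at the ETV6 start and 11.0 inside ELF1.

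ETV6 encodes a transcriptional repressor needed for blood formation in the bone marrow. It lies on the plus strand at chr12:11649674-11895377, and its window held 13 GATA3, 13 BHLHE40 and 54 H3K27ac regions, the most H3K27ac of the 9. The start had BHLHE40, signal 12.4, and the window's strongest H3K27ac region, signal 12.8 and rank 1007, but no GATA3 region. That H3K27ac region was the single one of the 215 in the top 1% of its list. The ETV6 promoter printed above is 69.0% G and C and holds none of the marked motifs.

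GATA3 at ETV6 lay deep in the record. Its strongest region, chr12:11801553-11802250 at 152 kb, had a signal of 40.6, rank 2145, where BHLHE40 was 8.41, rank 15231. The GATA3 summit lay in a 133 bp gap between 2 H3K27ac regions. The other 12 GATA3 regions had signals of 28.2 or less, and 9 of the 13 overlapped BHLHE40. The upper end of the record, where the gene ends, had a shared place too, with GATA3 at 8.03 and BHLHE40 at 12.1.

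ELK3, a ternary complex factor that works with serum response factor, lies on the plus strand at chr12:96194375-96269824. It had 2 GATA3, 5 BHLHE40 and 11 H3K27ac regions. A BHLHE40 region of signal 9.02 had its summit 240 bp from the start, and a shared place with GATA3 at 9.08 and BHLHE40 at 9.55 followed 1.33 kb into the gene. The strongest BHLHE40 region, signal 14.1, lay at 43.6 kb without GATA3. Beyond the end of ELK3, inside the kinase gene CDK17, a weak shared place carried the strongest H3K27ac region of the window, signal 6.81.

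ERG and ETS2 lie side by side on chromosome 21, 143 kb apart. ERG, at chr21:38367261-38661783 on the minus strand, had its factor signal in one short stretch. At 109 kb BHLHE40 reached 33.6 at chr21:38476074-38477763, rank 1032, and GATA3 25.5 at chr21:38475957-38477646, with summits 5 bp apart. The H3K27ac region over them, chr21:38475734-38477748, was 2015 bp wide and had a signal of 5.92, the highest of the window. At 112 kb GATA3 was higher, 35.6, and BHLHE40 lower, 17.5.

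The remaining 4 GATA3 regions of ERG had signals from 6.02 to 7.85 and overlapped neither BHLHE40 nor H3K27ac. None of the 4 annotated ERG starts had a region of any list over its promoter, and no region came within 1 kb of the outer start. ERG is a stem cell and endothelial gene in normal tissue. These lists measure chromatin and not transcripts, so they do not say whether it was transcribed in these cells.

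ETS2, a widely expressed target of MAP kinase signalling at chr21:38805183-38824955, was the single member with no shared place. Its 3 GATA3 regions had signals of 18.1, 20.6 and 22.1, all above the list's median of 11.2. They lay 17.5 kb before the record and 6.66 kb and 14.9 kb beyond it, and none overlapped BHLHE40 or H3K27ac. The 2 BHLHE40 regions were weak, 6.98 and 4.34, and both overlapped H3K27ac. The stronger had its summit 340 bp downstream of the first ETS2 start printed above and 406 bp before the second start.

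The first ETS2 promoter holds AGATAA too, beginning with its GATAA 198 bases before the start, without a GATA3 region over it. The pair of overlapping ERG promoters near 38498477 also shares 1 such match and had no GATA3 region. So of the promoters of these genes that hold AGATAA, the ELF1 internal start was the one with a GATA3 region. CACGTG, the E-box form that BHLHE40 is known to bind, is in none of the 13 promoters of the members and in 7.26% of RefSeq promoters, although 7 of the 13 had a BHLHE40 region. The general E-box CANNTG is in 8 of the 13 and in 68.7% of RefSeq promoters. It is in 2 of the 7 promoters with a BHLHE40 region, both at the ELF1 internal starts, and in all 6 without one. CAGCTG is in 1 of the 13, a second start of ELK3, against 17.9% of RefSeq promoters, and TGACTCA is in 0, against 4.95%.

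GABPA encodes the DNA-binding subunit of GABP, whose activation domain comes from its partners GABPB1 or GABPB2. At chr21:25734972-25772460 on the plus strand it had 1 GATA3 region and 1 BHLHE40 region, both over its start. GATA3 was weak there, signal 5.36 and rank 27909 of 29009, while BHLHE40 was 16.7 with its summit 8 bp from the start. The H3K27ac region over the start had a signal of 10.4 and a −log10 q-value of 152. ATP5PF, a subunit gene of the mitochondrial ATP synthase, starts in the same bases on the other strand.

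The GABPA promoter holds CCGGAAG once, on the minus strand, an extended ETS motif found in 10.3% of RefSeq promoters. It is centred 21 bp from the GATA3 summit and 52 bp from the BHLHE40 summit. The core GGAA alone is in 95.5% of promoters. The partner genes each had shared places, 4 of them at GABPB1 and 3 at GABPB2. GABPB1 had all 3 kinds of region near its start, like GABPA, with highest window signals of 44.1 for GATA3 and 31.5 for BHLHE40.

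SPI1, the PU.1 gene, is silenced as T cells form. At chr11:47354860-47378547 it had 2 GATA3, 5 BHLHE40 and 12 H3K27ac regions, but several lay at other genes. The strongest BHLHE40 region, signal 18.3, was at a start of the zinc transporter gene SLC39A13, and another of 12.3 was at the start of the proteasome gene PSMC3. The strongest H3K27ac regions, 10.1 and 8.32, were at the same neighbouring starts.

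Inside the SPI1 record lay 1 GATA3 region of signal 14.6, 8.69 kb from the upper end, with BHLHE40 at 9.77 and a weak H3K27ac region of 2.80. An H3K27ac region of signal 4.84 lay at 4.60 kb without either factor. Beyond the upper end, H3K27ac reached 7.36 at 16.6 kb without a factor, and at 21.6 kb GATA3 was 12.5 and BHLHE40 11.7. Of all lists, a BHLHE40 region of signal 6.52 at the lower end was the single region within 1 kb of either end of the record.

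**Figure D3:**
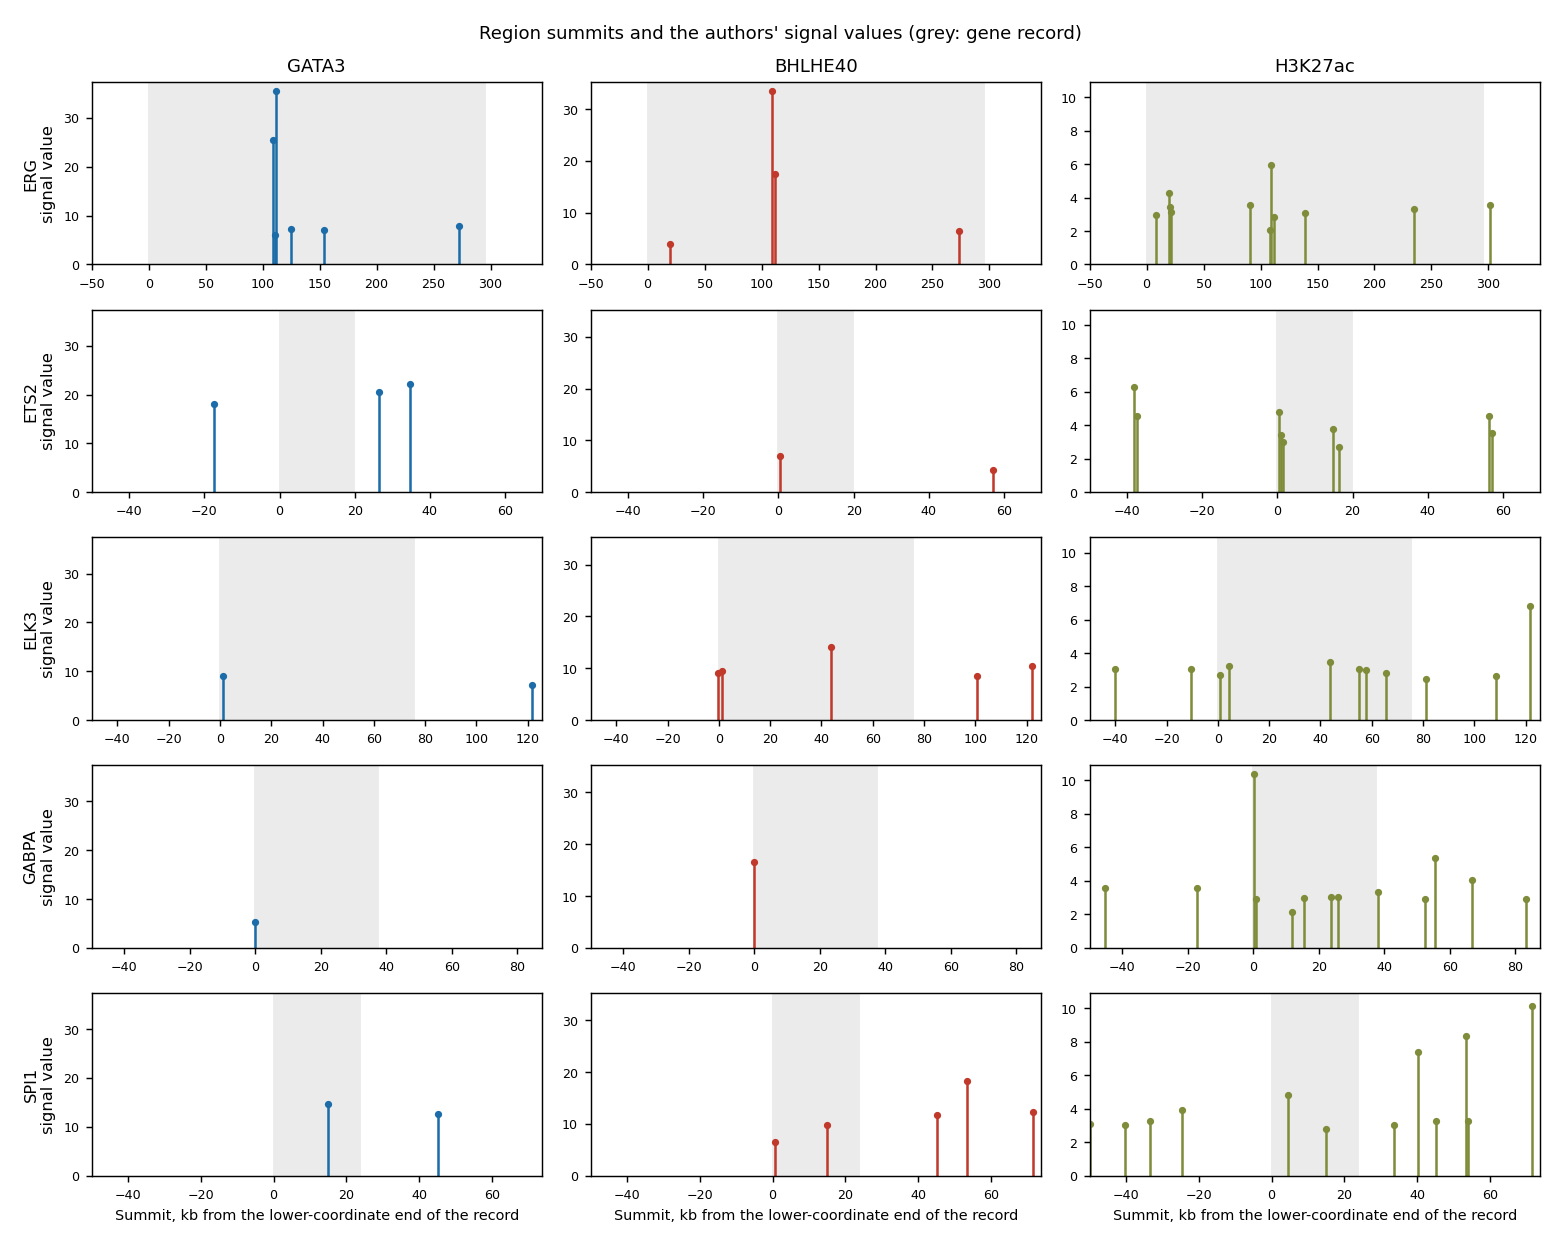
Region summits in the windows of ERG, ETS2, ELK3, GABPA and SPI1, drawn by distance in kb from the lower-coordinate end of the record (grey) with the authors' signal value as height. ERG has its GATA3 and BHLHE40 lines of 25.5 to 35.6 and 17.5 to 33.6 close together inside the record, ETS2 has 3 GATA3 lines outside its record, and the GABPA lines stand at the start.

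Starts were examined for the members with a known strand, taking the outer start of each record. A BHLHE40 region lay within 1 kb of the start of 5 of 6 genes, namely ELF1, ETV6, ETS2, ELK3 and GABPA, against 47.1% of 15843 protein-coding genes. H3K27ac did so at the same 5, against 54.8%. GATA3 did so at 1 of 6, GABPA, against 22.1%, so GATA3 was the lowest of the 3 lists here and over all genes. Over all 13 annotated starts of these 6 genes, internal ones included, the promoter bases met a GATA3 region at 3, a BHLHE40 region at 7 and an H3K27ac region at 6. The 3 with GATA3 were the GABPA start and the internal ELF1 starts. For ETS1, FLI1 and SPI1 both ends of the record were examined, and the BHLHE40 region of SPI1 was the one found, where 46.9% of all genes had a BHLHE40 region at one end or the other. No GATA3 or H3K27ac region was near an end of these 3 records, where 22.8% and 56.3% of all genes had one. Starts inside these 3 records were not examined, because no annotated promoters were at hand for them. The result on record ends therefore does not say whether their promoters lacked such regions.

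Taking all windows together, 48 of the 88 GATA3 regions overlapped a BHLHE40 region, 54.5% with a 95% Wilson interval from 44.2% to 64.5%. The whole GATA3 list had 48.7%, inside that interval. In the other direction 46 of 70 BHLHE40 regions overlapped GATA3, 65.7% with an interval from 54.0% to 75.8%, against 53% of the list. The intervals cover counting error alone and treat regions as independent, although neighbouring regions share a locus. Among the dense windows, the share of GATA3 regions that overlapped BHLHE40 was highest at ETV6, 9 of 13, and lowest at ETS1, 9 of 22. The share of BHLHE40 regions that overlapped GATA3 was highest at FLI1, 15 of 17, and lowest at ELF1, 6 of 10.

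Summits of the 2 factors were close at these places. The median distance over the 48 places was 27 bp, against 35 bp over 14123 in the list, and 35 of the 48, or 72.9%, were within 50 bp, against 61.5%. No interval was calculated for that share, and its difference from the list was not tested. Distances above 100 bp occurred at 7 places, the longest 1427 bp at ELF1, where 1 wide BHLHE40 region covered 2 GATA3 regions.

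H3K27ac overlapped 47 of the 88 GATA3 regions, 53.4% with an interval from 43.1% to 63.5%, close to 49.1% of the list. It overlapped 55 of the 70 BHLHE40 regions, 78.6%, against 76.4%. Counting just H3K27ac regions with a −log10 q-value of at least 5, the shares were 36.4% for GATA3, against 33.4% of the list, and 54.3% for BHLHE40, against 60.2%. Among GATA3 regions the split by BHLHE40 was wide: 40 of 48 shared regions had H3K27ac, 83.3%, and 7 of 40 unshared ones did, 17.5% with an interval from 8.75% to 32.0%. The whole list shows the same split, 77.4% and 22.3%, so it is not particular to ETS genes.

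Of the H3K27ac regions in the windows, 132 of 215, or 61.4% with an interval from 54.7% to 67.6%, overlapped neither factor, against 73.6% of the list. At 4 of the 48 shared places, 8.33%, the GATA3 summit lay in a gap of at most 500 bp between H3K27ac regions, against 7.04% of the list. These 4 included the strongest GATA3 regions of ETS1 and ETV6 and the internal one of FLI1. The remaining place was a weak one at 13.6 kb of ETS1, with a GATA3 signal of 7.83, rank 22480. Median signals in the windows were close to those of the lists, 10.6 against 11.2 for GATA3, 9.35 against 9.35 for BHLHE40 and 3.00 against 3.31 for H3K27ac. The single windows differed: the median GATA3 signal was 14.8 at FLI1, where 7 of 24 regions were in the top 10% of the list, and 7.63 at ETS1, where 2 of 22 were.

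**Figure D4:**
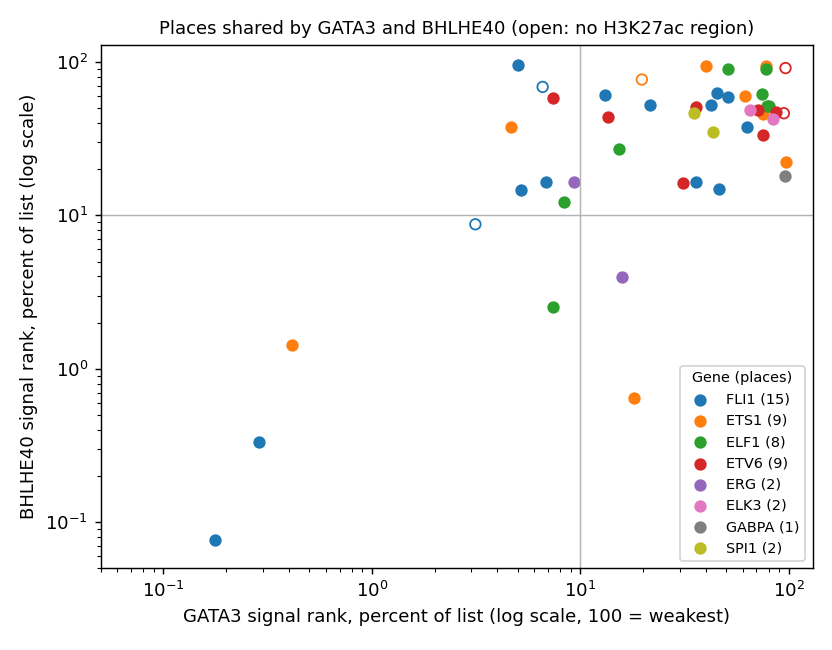
Each point is a GATA3 region that overlaps a BHLHE40 region in the windows, plotted by the rank of its GATA3 signal and of the BHLHE40 signal as a percent of each list on log scales (small is strong), coloured by gene, with open points where no H3K27ac region overlaps and grey lines at 10%. The 5 points in the lower left are in the top 10% of both lists and belong to FLI1 (3), ETS1 (1) and ELF1 (1).

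For context, 19 other ETS genes were counted in the same way. GATA3 regions lay in the windows of 13 of 19, BHLHE40 regions in 15 and H3K27ac regions in all 19, and a shared place in 11. The median of factor regions per window was 4, against 10 for the 9 members, whose records are mostly long. Per 100 kb of window the medians were 1.23 against 2.50 for GATA3 and 1.86 against 3.76 for BHLHE40. ERF, a repressor gene, had the most with 3 GATA3 and 10 BHLHE40 regions, then ETV1 with 4 and 4 and ELF2 with 4 and 3. FEV, SPDEF and SPIC, genes of neuronal, epithelial and B cell or macrophage expression, had none.

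ETV5 was the single gene of the 19 with top 1% regions, with highest signals of 128 for GATA3 and 65.7 for BHLHE40, although its window held 2 GATA3 and 4 BHLHE40 regions. Among the 16 of these genes with a known strand, BHLHE40 was within 1 kb of the start in 5, H3K27ac in 6 and GATA3 in 0. Per 100 kb, ETV3L had the highest GATA3 density of the 19, 3.71, close to the 3.76 of ETV6 and above the 1.52 of ERG, while FLI1, ETS1 and ELF1 had 6.54 to 10.5. ERF had 9.30 BHLHE40 regions per 100 kb, above the 7.45 of FLI1. Some of these windows overlap each other.

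**Figure D5:**
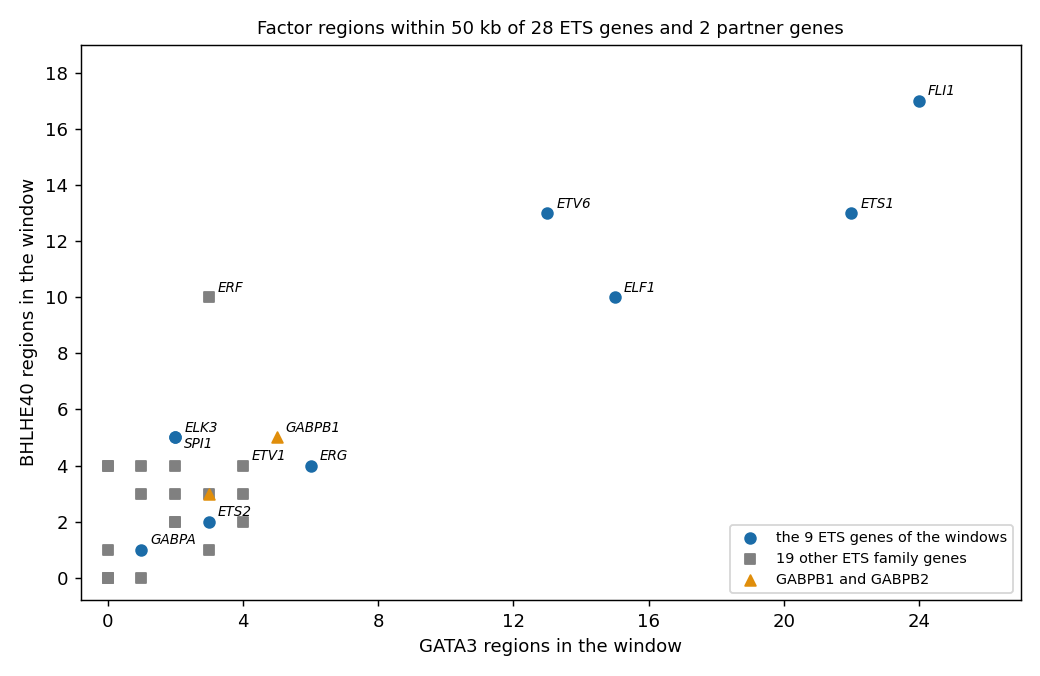
GATA3 regions (horizontal) against BHLHE40 regions (vertical) in the 50 kb windows of the 9 members (circles), the 19 other ETS genes (squares, some coinciding) and GABPB1 and GABPB2 (triangles). FLI1, ETS1, ELF1 and ETV6 lie apart with 13 to 24 GATA3 regions, and no square lies beyond 4 GATA3 regions, in counts that are not scaled to window length.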

How the data were processed

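ChIP-seq of stimulated Jurkat cells was used as 3 deposited peak lists, each of a group of 2 samples grouped by title. MACS2 and build hg38 are named in the submitters' processing notes; other steps are not given in the sources used here. The deposited factor lists are named for an irreproducible discovery rate of 0.05, and the H3K27ac list as pooled. In the authors' lists the score (540 to 1000 for GATA3) encodes that rate, the signal value is the authors' enrichment measure with its reference not stated, and the −log10 q-values are the authors' too; the summit offset, in bp, is per the file layout. They ranked or filtered regions within 1 list. Depth is unknown.

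Windows were RefSeq GRCh38.p14 records with 50 kb each side. Regions overlapped at 1 bp or more, and starts were near within 1 kb. Strands came from the promoter table, which matched 6 of the 9 members; it has no entry for ETS1, FLI1 and SPI1. A total of 8 motifs was searched on both strands: the GATA motif GATAA and its longer form AGATAA, the E-box CACGTG and its variant CAGCTG, the general E-box CANNTG, which covers both, the ETS core GGAA, the longer CCGGAAG, which contains it, and the AP-1 motif TGACTCA. Named places were those in the top 10% of either factor list and each gene's strongest regions, and a few weaker ones chosen after their values were seen; of the other family genes, the 3 with most and fewest factor regions, and ETV5 and ETV3L, which were chosen after their values were seen. Members and lists were chosen with earlier results of these data known. Helper functions were tested on simulated data. Python 3.11.15, pandas 2.3.3 and scipy 1.17.1 were used. The other 16 groups were not used here.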

Additional observations from a re-analysis of the deposited data

How the results depend on the processing

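Of 66 alternatives over 22 results, 56 were counted as close to the value given, but the limit for this was wide. It took in a longest GATA3 run of 10 regions at FLI1, against 7. It also took in BHLHE40 regions at the start of 4 members with only the promoter bases, against 6 with the SPI1 record end included. The count of 56 therefore says little about stability, and single values are given here. With H3K27ac limited to a −log10 q-value of at least 5, its regions in the windows fell from 215 to 84, and the shares of GATA3 and BHLHE40 regions that overlapped it were 36.4% and 54.3%, against 53.4% and 78.6%. With the factor's summit required inside the H3K27ac region, these shares were 33.0% and 50%. GATA3 regions lay at the start of 2 members within 2 kb and of 0 with a discovery rate of 0.01, against 1. H3K27ac regions lay at the start of 3 members, against 5, when only the promoter bases counted. The cause was not tested beyond what each alternative leaves out. Density percentiles were recalculated for the factors alone, with 10 kb or 100 kb windows and with the stricter lists. All were counted as close, but under so wide a limit this was hardly a test. GATA3 at ETV6 went from 90.4% to 95.8% with 100 kb windows, and GATA3 at FLI1 from 99.8% to 99.1% with 10 kb windows. The density alternatives and the run lengths with other spacings were chosen after seeing the data.

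No paired analysis was possible because the 2 samples of a group were deposited as 1 list without separate values. Leaving out each sample was not run for the same reason. Depth is unknown, so the weakest enrichment that the lists reach is unknown.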
